A study of Mus musculus with 4 samples.

Results

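The serine protease genes of the kallikrein, trypsin and mast cell or lymphocyte granule type were examined at their promoters in the mouse aortic media. Members were the rows of the promoter table whose symbol began with Klk, Prss, Try, Tmprss, Mcpt, Gzm or Cma in the numbered or lettered form of those family names. This gave 100 of 26354 promoters, made up of 28 Klk, 37 Prss, 3 Try, 17 Tmprss, 4 Mcpt and 10 Gzm promoters and 1 Cma promoter (Cma1). H3K9me2, the dimethylated form of lysine 9 on histone H3, was profiled by chromatin immunoprecipitation and sequencing (ChIP-seq) in medial tissue of male C57Bl/6J mice, taken directly from the aorta after the adventitia and endothelium had been peeled away by hand. Libraries came from 2 experiments named v102 and v134, and in each of them 1 immunoprecipitated (ChIP) and 1 input library was sequenced, the input being sheared chromatin that was not immunoprecipitated. No treatment, genotype or disease group was included, no age was given in the labels, and whether an experiment pooled several animals was not stated. The question addressed at each promoter was whether its share of the ChIP reads exceeded or fell short of its share of the input reads. Reads were those within 1 kb of the transcription start site, and the libraries were normalized. Above and below input are used in this relative sense, not for more or fewer reads.

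Most of these genes encode proteases with the trypsin fold, which cut proteins with a serine in the active site, and Klk1b7-ps is annotated as a pseudogene. Kallikreins, trypsinogens, granzymes and mast cell chymases are secreted or stored in granules by epithelia, the exocrine pancreas, cytotoxic lymphocytes and mast cells respectively, whereas Tmprss proteins are anchored in the membrane and Prss is a mixed group with many testis genes. H3K9me2 is deposited mainly by the methyltransferases EHMT1 and EHMT2 and is associated with silent genes in facultative heterochromatin. In bulk tissue, a smaller share of cells carrying the mark and less mark in each cell cannot be told apart.

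Reads at the promoters were sparse. Summed over the table, the ChIP libraries held 162233 (v102) and 229605 reads (v134) and the inputs 619100 and 1084349 reads, and the median member had 18.5 ChIP and 54 input reads over both experiments. ChIP reads of single members ranged from 2 to 60, and 5 members had 0 ChIP reads in 1 library but none had 0 in both. Of the control promoters, the housekeeping gene Actb had 0 and 1 ChIP reads in v102 and v134 over 31 and 53 input reads and was below input, whereas the testis gene Magea2, the positive control, had 3 and 7 over 6 and 16 and did not pass (log2 fold change 1.12, edgeR adjusted p = 0.170). Over all promoters, 18.6% were above and 17.0% below input by edgeR. Beside this, 3 of 7 smooth muscle markers were below input (Myh11, Lmod1 and Myocd) and Smtn was above. Of 7 mast cell markers, 1 was above (Fcer1a) and 1 below (Kit), and 2 of 6 T and NK cell markers were above (Cd3d and Klrd1). The leukocyte gene Ptprc was above, although a promoter mark does not measure which cells were present. Lmod1, Myocd, Kit and Cd3d lost these calls with the experiment as a block, and Lmod1, Kit, Fcer1a, Cd3d, Klrd1 and Ptprc lost them with an offset for GC content. The part of other cell types in the values below was not tested.

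H3K9me2 was high at the protease promoters as a group, but not at all of them. By edgeR's quasi-likelihood test of ChIP against input with Benjamini-Hochberg adjustment over all promoters, 41 of the 100 members were above input at an adjusted p under 0.05, beside 18.6% of all promoters, and 7 were below input, beside 17.0%. The other 52 did not pass. The median log2 fold change of ChIP over input was 0.80 over the members and −0.35 over all promoters. When the experiment number was used as a block, 32 members were above (15.8% of all promoters) and 4 were below (8.30%). DESeq2 gave an adjusted p at 55 members and 8471 promoters, and called 24 of these members above (36.1% of these promoters) and none below (0.319%). All 7 members below input by edgeR were among those for which DESeq2 gave no adjusted p. At an unadjusted p under 0.05, 5 members were below by DESeq2 and 12 by edgeR, beside 2497 and 6542 of all 26354 promoters. Under a minimum of 20 reads per input library, which 47 members passed, 16 were above (17.5% of 13993 promoters) and 2 were below, as were 1678 of those 13993 promoters. When ChIP reads and input reads were each summed over the experiments and divided, 54 members lay at or above the 75th percentile of all promoters, beside 25.0% by construction. Of these, 42 were also in the top quartile of each experiment taken alone, beside 4657 of the 6591 promoters at or above that percentile. The plot of ranked log2 fold changes shows that the values ran without a break from −2.97 at Prss8 to 2.39 at Klk12. Between the experiments, Spearman's rho of the log2 ratios was 0.755 over the members and 0.689 over all promoters. Those points share libraries and depth, and no test was made of them.

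**Figure D1:**
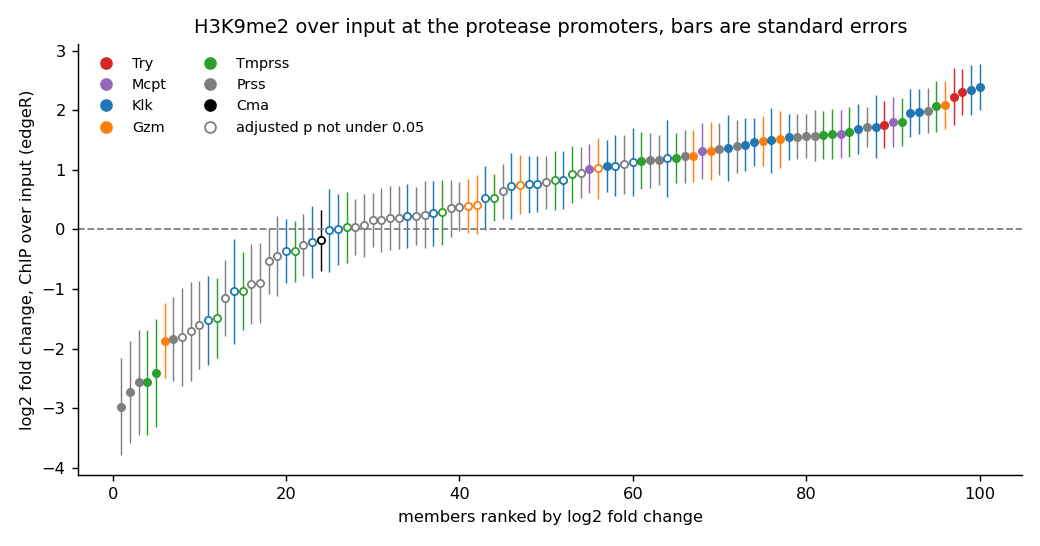
The 100 protease promoters ranked by log2 fold change of H3K9me2 ChIP over input (edgeR), with standard errors as bars and gene families in colour; filled points passed an adjusted p of 0.05. The highest values are at Klk12 (2.39), Klk1b22 (2.34), Try10 (2.30) and Try5 (2.22). Gzmc (2.08), Tmprss15 (2.06) and Prss47 (1.99) come next, ahead of Klk14 (1.97). The 7 promoters below input are of the Prss, Tmprss and Gzm families.

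Promoter sequences are given for the promoter with the highest log2 fold change (Klk12), for the lowest member that has an entry in the reference promoter table (Prss35), and for the mast cell chymase genes Cma1 and Mcpt4, which lie in 1 locus and of which only Mcpt4 was above input. They were taken from RefSeq on GRCm38.p6, run from 250 bases before to 50 bases after the annotated start, and are written on the gene's own strand with each CpG in capitals. The windows are chr7:43768850-43769149 (plus strand) for Klk12, chr9:86743383-86743682 (plus) for Prss35, chr14:55944626-55944925 (minus) for Cma1 and chr14:56062261-56062560 (minus) for Mcpt4. The RefSeq start of Klk12 lay 203 bases from the GENCODE start used for the 2-kb window.
Klk12: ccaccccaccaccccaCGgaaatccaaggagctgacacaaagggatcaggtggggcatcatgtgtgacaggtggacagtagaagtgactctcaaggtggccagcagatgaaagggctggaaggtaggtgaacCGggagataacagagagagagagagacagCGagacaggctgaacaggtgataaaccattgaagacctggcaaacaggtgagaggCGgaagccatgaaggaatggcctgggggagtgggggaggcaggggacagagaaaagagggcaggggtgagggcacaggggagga
Prss35: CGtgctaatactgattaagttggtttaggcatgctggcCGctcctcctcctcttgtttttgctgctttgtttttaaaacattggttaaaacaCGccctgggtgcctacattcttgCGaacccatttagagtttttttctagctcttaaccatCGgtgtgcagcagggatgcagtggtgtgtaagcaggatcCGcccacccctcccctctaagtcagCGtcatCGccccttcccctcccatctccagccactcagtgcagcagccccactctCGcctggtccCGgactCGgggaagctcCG
Cma1: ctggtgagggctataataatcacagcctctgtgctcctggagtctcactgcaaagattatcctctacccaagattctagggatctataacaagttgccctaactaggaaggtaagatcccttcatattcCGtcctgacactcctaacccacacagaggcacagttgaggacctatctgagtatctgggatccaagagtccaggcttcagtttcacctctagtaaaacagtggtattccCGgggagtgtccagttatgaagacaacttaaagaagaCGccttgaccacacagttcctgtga
Mcpt4: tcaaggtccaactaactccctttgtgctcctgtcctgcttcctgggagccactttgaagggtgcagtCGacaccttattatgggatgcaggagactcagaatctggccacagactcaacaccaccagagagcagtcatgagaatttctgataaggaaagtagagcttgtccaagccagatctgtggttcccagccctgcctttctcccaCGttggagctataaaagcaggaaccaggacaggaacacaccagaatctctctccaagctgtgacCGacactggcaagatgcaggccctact
Prss35 holds 12 CpG in these bases, Klk12 holds 4, and Cma1 and Mcpt4 hold 3 each. Of the 100 members, 81 matched a RefSeq promoter, with a median of 3 CpG per promoter, beside 7 over 27025 RefSeq promoters. The median was 2 in the 35 matched members above input, 4 in the 42 that did not pass and 5.5 in the 4 below input. The letters TATAAA on either strand were found in 9 of the 81 (11.1%), Mcpt4 included, and in 14.2% of the 27025.

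Families differed in the pooled ratio of ChIP to input reads, which is given here as a fold over the same ratio of all nuclear promoters so that the library totals cancel. Trypsinogens had the highest values, 3.95 in v102 and 3.24 in v134, from 3 promoters. The Mcpt family followed with 2.45 and 2.05, then the Klk family with 1.9 and 1.69 and the Gzm family with 1.62 and 1.55. These families kept this order in both experiments and their paired values did not overlap. By counting error alone, the summed ratio of the Mcpt family (0.560, 95% Wilson interval 0.449 to 0.698) overlapped that of the Klk family (0.452, 0.410 to 0.498), and Klk overlapped Gzm (0.402, 0.344 to 0.470), whereas the Try interval (0.874, 0.683 to 1.12) overlapped Mcpt but not Klk. Such intervals cover counting error only, not the spread between experiments or between genes. They can also be too narrow, because several reads can stem from 1 molecule when no molecular identifier is used. Tmprss (1.23 and 1.50) and Prss (1.34 and 0.997) changed places between the experiments. Cma1, alone in its family, had 0.740 and 0.673. With 2 libraries against 2 an exact two-sided permutation test cannot go below p = 0.333, so family differences were not tested.

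**Figure D2:**
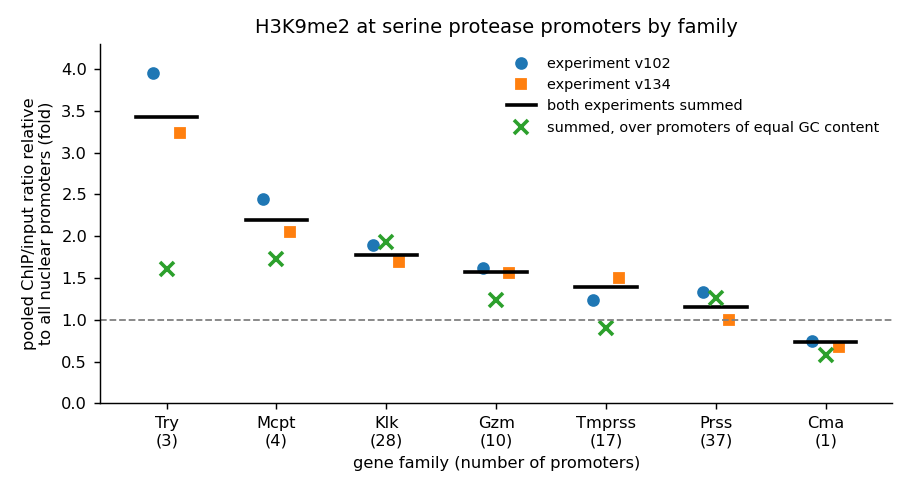
Pooled H3K9me2 ChIP/input ratio of each protease family as a fold over all nuclear promoters, in experiment v102 (circles), experiment v134 (squares) and both summed (bars), with the summed value over promoters of equal GC content as crosses; the dashed line marks 1. The Try family stands highest at 3.43 and drops to 1.61 against promoters of equal GC content, whereas the Klk family goes from 1.77 to 1.93.

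Promoter GC content went with these values. Over all 22300 nuclear promoters with a position, the log2 ratio fell with GC content (Spearman rho −0.549), and over the members rho was −0.497. The 3 trypsinogen windows had a median GC content of 37.5% and the 7 Tmprss11 windows of 36.7%, compared with 50.9% for all promoters, whereas the Klk windows had 49.0%. Measured against promoters of equal GC content, the pooled ratio was 1.61-fold for Try, 1.73-fold for Mcpt, 1.93-fold for Klk, 1.23-fold for Gzm, 1.26-fold for Prss, 0.902-fold for Tmprss and 0.582-fold for Cma1. Klk was then the highest family, and Tmprss moved below 1. With the GC trend of each library as an offset in the edgeR quasi-likelihood test, 18 members were above input (7.87% of the promoters tested) and 7 were below (12.7%), and with the block added the counts were 13 (6.51%) and 6 (6.65%). Unlike the main fit, these fits were scaled by library totals, and they covered 22330 promoters. Scaling by library totals without the offset gave 36 members above (16.3% of all promoters) and 10 below (21.5%). Each of the 18 was also above input without the offset, and they comprised 8 Klk, 6 Prss, 2 Mcpt and 2 Gzm promoters and no Try or Tmprss promoter.

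**Figure D3:**
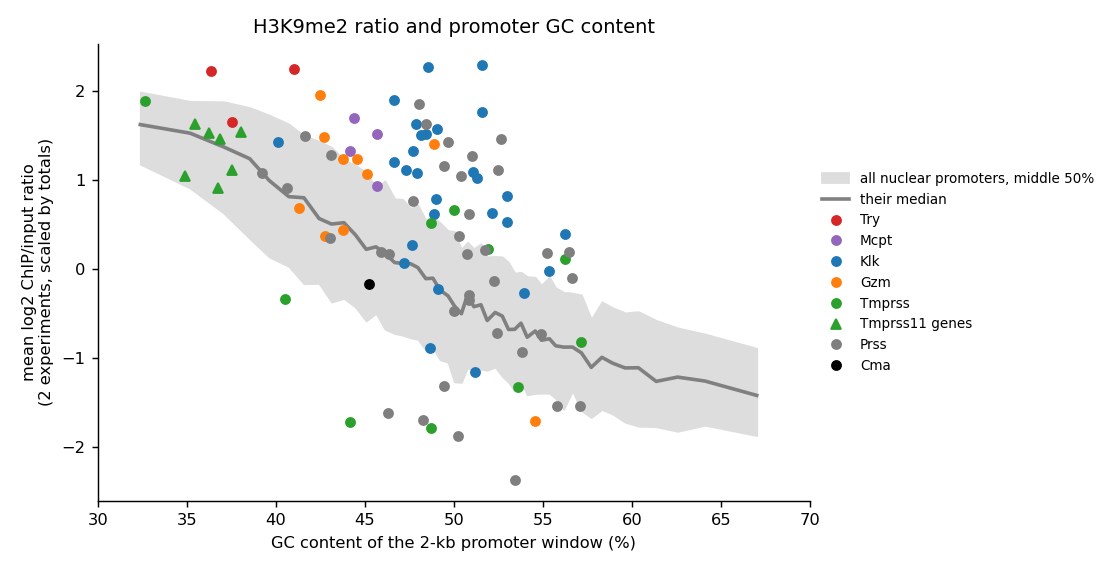
Mean log2 H3K9me2 ChIP/input ratio of the 2 experiments (scaled by library totals, pseudocount 1 read) against GC content of the 2-kb promoter window, with protease promoters as points coloured by family and the 22300 nuclear promoters with a position as a median line and a band of their middle 50% in 50 GC bins. The Tmprss11 promoters (triangles) lie inside the band at 34.9% to 38.0% GC, while most Klk promoters between 46.6% and 53.0% GC lie above it.

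The kallikrein locus on chromosome 7 (chr7:43690418-44229618 on GRCm38, from Klk14 to Klk1, all genes on the plus strand) held 27 of the members. Its pooled ratio was 1.87-fold over nuclear promoters in v102 and 1.67-fold in v134, 11 of the 27 promoters were above input and none was below by edgeR's quasi-likelihood test, with 1 below at an unadjusted p under 0.05 and 0 by DESeq2 at that level. Klk12 had the highest log2 fold change of all members. It had 21 and 28 ChIP reads (v102 and v134) over 14 and 31 input reads, a log2 fold change of 2.39 ± 0.39 (SE) and an adjusted p of 3.45e-08 by edgeR's quasi-likelihood test, and it ranked at the 98.1st percentile of the summed ratio. Klk14, a trypsin-like protease of the epidermis, had 14 and 33 ChIP reads over 22 and 34 input reads and a log2 fold change of 1.97 ± 0.38 (edgeR adjusted p = 4.67e-06). Between them, Klk13 had 6 and 13 reads over 23 and 30 and did not pass (0.75, edgeR adjusted p = 0.204). By these calls, promoters above input and promoters not called alternated within the locus, and the stretch from Klk11 to Klk6 had none above input. Under the minimum of 20 reads in each input, Klk13 was above input, as was Klk7, which lies in that stretch. A promoter not called cannot be taken as equal to input. Klk8, the brain and skin protease neuropsin, had 5 and 8 ChIP reads over 12 and 43 input reads (log2 fold change 0.22, edgeR adjusted p = 0.767). Klk4, which matures tooth enamel, had the lowest ratio in the locus, with 2 and 2 ChIP reads over 27 and 28 input reads (ratio 0.0727, Wilson interval 0.0274 to 0.193) and a log2 fold change of −1.53 (edgeR adjusted p = 0.0918). Klk5 of the epidermis was above input at an adjusted p of 0.0407 by edgeR's quasi-likelihood test, but not with the experiment as a block (adjusted p = 0.0695).

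The tissue kallikrein Klk1 and its Klk1b copies made up 15 promoters of this locus, 8 of them above input. Their pooled ratio was 2.17-fold over nuclear promoters in v102 and 1.85-fold in v134, beside 1.58-fold and 1.50-fold for the 12 promoters from Klk4 to Klk15, of which 3 were above input. Against promoters of equal GC content the order turned, with 1.89-fold for Klk1 and Klk1b and 2.19-fold for Klk4 to Klk15. Klk1b22 had 17 and 22 ChIP reads over 11 and 26 input reads (log2 fold change 2.34 ± 0.42, edgeR adjusted p = 6.08e-07). Klk1b27 had 19 and 19 over 14 and 34 (1.95 ± 0.41, edgeR adjusted p = 2.61e-05). At both genes the ChIP count exceeded the input count in v102, although the input library of v102 was several times larger. Klk1 itself, the gene of the kinin-releasing tissue kallikrein, had 10 and 9 reads over 20 and 31 and did not pass (0.83, edgeR adjusted p = 0.162). Klk1b4 had 0 and 3 ChIP reads over 12 and 18 input reads, and a count of 0 in v102 allows a ratio of up to 0.250 there. Klk1b8 (edgeR adjusted p = 0.0225) and Klk1b26 (0.0410) lost the call with the experiment as a block (0.0874 and 0.140). The Klk1b genes are near copies of each other. In this group a median of 4.10% of the 75-base words in the window occurred elsewhere in the genome, with a highest value of 13.0%, and the median summed input was 37 reads compared with 54 for all members. Whether reads at these promoters were split or lost between copies was not tested. Klkb1, which shares the name but encodes plasma prekallikrein and lies on chromosome 8, had 14 and 21 ChIP reads over 17 and 45 input reads (1.46 ± 0.40, edgeR adjusted p = 0.00197), and with the GC offset the adjusted p was 0.633.

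**Figure D4:**
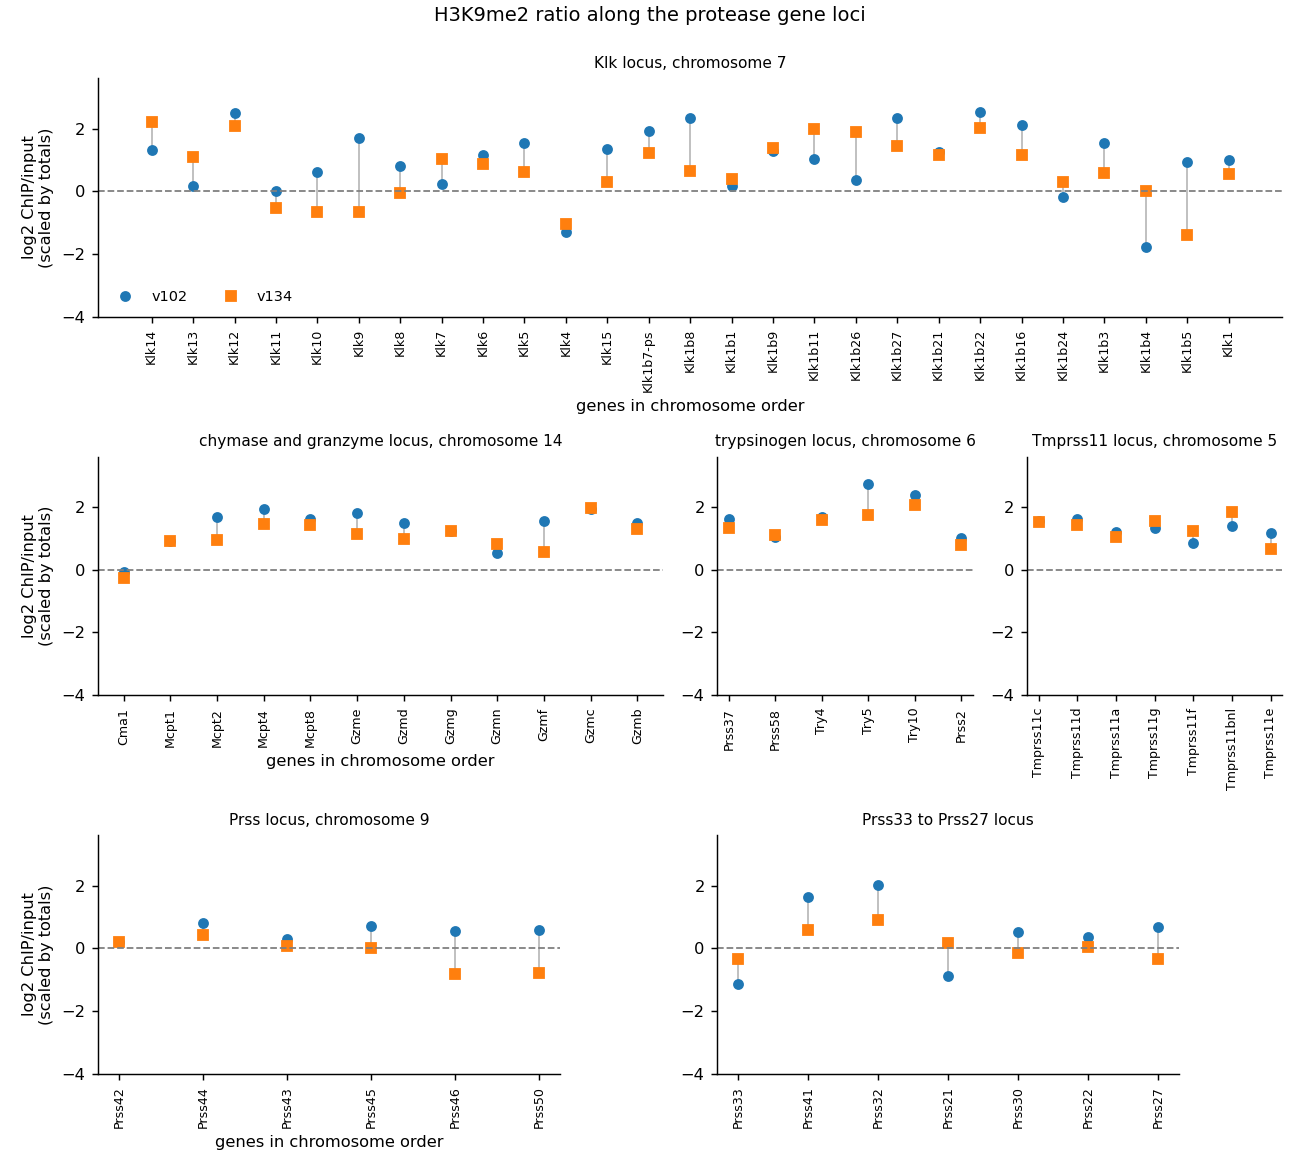
Log2 H3K9me2 ChIP/input ratio, scaled by library totals with a pseudocount of 1 read, in v102 (circles) and v134 (squares) at each protease promoter in chromosome order in 6 loci; grey lines join the 2 values of a gene and the dashed line marks 0. Both values are above 0 at every promoter of the trypsinogen and Tmprss11 loci and at all but Cma1 in the chromosome 14 locus. The Klk locus and the Prss33 to Prss27 locus hold promoters with high and low ratios side by side. In the Prss locus on chromosome 9 the summed ratios stay within 0.216 and 0.323.

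The chymase and granzyme locus on chromosome 14 (chr14:55941451-56262260) held Cma1, the 4 Mcpt genes and 7 granzyme genes. By edgeR's quasi-likelihood test 9 of these 12 promoters were above input and none was below, 0 also at an unadjusted p under 0.05 by edgeR and by DESeq2, and the pooled ratio was 2.11-fold over nuclear promoters in v102 and 1.92-fold in v134. With the GC offset 4 of the 12 were above input (7.87% of the promoters tested), and 2 were with the block added (6.51%). Mcpt4, the chymase of connective tissue mast cells, had 17 and 17 ChIP reads over 17 and 30 input reads (log2 fold change 1.80 ± 0.42, edgeR adjusted p = 0.000197). Mcpt8, a basophil protease, had 15 and 21 reads over 19 and 38 (1.60 ± 0.40, edgeR adjusted p = 0.000633). Mcpt1 and Mcpt2, chymases of mucosal mast cells, had lower values. Mcpt1 had 11 and 18 ChIP reads over 23 and 46 input reads (1.01 ± 0.41), with an edgeR adjusted p of 0.0418 that became 0.0605 with the experiment as a block. Mcpt2 had 10 and 13 over 12 and 33 (1.31 ± 0.47), with an edgeR adjusted p of 0.0206 that became 0.0528 with the block. With the GC offset Mcpt1 and Mcpt2 were not called (edgeR adjusted p = 0.430 and 0.356). Mcpt4 and Mcpt8 kept the call with the offset but not with offset and block (edgeR adjusted p = 0.0712 and 0.0608). Cma1, the chymase at the edge of the locus, had 7 and 6 ChIP reads over 31 and 39 input reads. Its ratio of 0.186 (Wilson interval 0.104 to 0.333) lay at the 55.0th percentile of all promoters, its log2 fold change was −0.19 ± 0.51, and it did not pass (edgeR adjusted p = 0.789). The intervals of Cma1 and Mcpt4 (0.467 to 1.12) did not overlap, but a difference between 2 promoters was not tested. Ctsg, the cathepsin G gene that lies between Mcpt8 and Gzme and is not of these families, had 7 and 10 ChIP reads over 27 and 37 input reads and a ratio of 0.266, and was not called.

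Granzyme promoters lay at 3 locations. The 7 granzyme promoters of the chromosome 14 locus had a pooled ratio 2.29-fold over nuclear promoters in v102 and 2.05-fold in v134, and 5 were above input. Gzmc had the highest value of the family, with 16 and 24 ChIP reads over 16 and 29 input reads (log2 fold change 2.08 ± 0.40, edgeR adjusted p = 5.49e-06). Gzmb, the granzyme of cytotoxic T and NK cells that triggers apoptosis, had 13 and 19 reads over 18 and 37 (1.48 ± 0.41, edgeR adjusted p = 0.00240). Gzmc and Gzmb were the granzymes that remained above input with the GC offset (adjusted p = 0.0271 and 0.0140 by edgeR's quasi-likelihood test). Gzmg passed at an edgeR adjusted p of 0.0232, which became 0.0627 with the block. Gzmf, with 22.8% repeated 75-base words, the highest of all members, and Gzmn did not pass. Gzma and Gzmk, a neighbouring pair on chromosome 13, were near the level of all nuclear promoters, 1.21-fold in v102 and 1.01-fold in v134. Gzma had 9 and 10 ChIP reads over 20 and 51 input reads (0.39, edgeR adjusted p = 0.510), and Gzmk had 5 and 11 over 18 and 40 (0.41, edgeR adjusted p = 0.526). Gzmm on chromosome 10 was the granzyme below input, with 1 and 4 ChIP reads over 37 and 50 input reads (−1.87 ± 0.63, edgeR adjusted p = 0.0127). Gzmm lost this call with the GC offset (edgeR adjusted p = 0.0888) and under the minimum of 20 reads in each input (0.0570).

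The trypsinogen locus on chromosome 6 (chr6:40514824-41525079, where the digestive trypsinogen genes lie inside the T cell receptor beta locus) had a pooled ratio of 2.75-fold over nuclear promoters in v102 and 2.48-fold in v134. This was the highest of the 9 loci of 3 or more members, but against promoters of equal GC content it was 1.33-fold and 4 loci were higher (Klk14 to Klk1 at 2.01-fold, Cma1 to Gzmb and Prss33 to Prss27 at 1.50-fold and Prss42 to Prss50 at 1.37-fold). Of its 6 promoters 5 were above input. Try10 had 18 and 31 ChIP reads over 13 and 35 input reads (log2 fold change 2.30 ± 0.39, edgeR adjusted p = 8.98e-08). Try5 had 13 and 16 over 7 and 23 (2.22 ± 0.47, edgeR adjusted p = 4.19e-05), and Try4 had 16 and 24 over 19 and 38 (1.75 ± 0.39, edgeR adjusted p = 0.000110). All 3 Try genes encode trypsinogens, and each was in the top decile of the summed ratio with percentiles of 97.4, 96.8 and 91.6. Prss37 was above input (1.55, edgeR adjusted p = 0.000340), as was Prss58 (1.16, edgeR adjusted p = 0.0204), whereas Prss2, the anionic trypsinogen gene, had 10 and 16 reads over 20 and 45 and did not pass (0.95, edgeR adjusted p = 0.0658). With the GC offset none of the 6 was above input by edgeR's adjusted p and 2 were at an unadjusted p under 0.05, where the adjusted p was 0.0552 for Try5 and 0.142 for Try10.

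Among the membrane-anchored Tmprss genes, the Tmprss11 cluster had higher ratios than the remainder, although both were below 1 against promoters of equal GC content (0.961-fold and 0.821-fold). The 7 Tmprss11 genes, epithelial airway trypsin-like proteases on chromosome 5 (chr5:86231481-86745815), had a pooled ratio of 2.07-fold in v102 and 2.36-fold in v134 over nuclear promoters, with 6 above input and all 7 in the top quartile. Tmprss11bnl had 10 and 28 ChIP reads over 15 and 37 input reads (log2 fold change 1.80 ± 0.40, edgeR adjusted p = 9.47e-05). Tmprss11d had 12 and 20 over 15 and 36 (1.60 ± 0.42, edgeR adjusted p = 0.00112), and Tmprss11e, the lowest, had 9 and 11 over 16 and 35 (0.92 ± 0.48, edgeR adjusted p = 0.115). Tmprss11f lost its call with the block (edgeR adjusted p = 0.0482 and 0.101). None of the Tmprss11 genes was above input with the GC offset, 0 also at an unadjusted p under 0.05 by edgeR. The other 10 Tmprss promoters had a pooled ratio of 0.741-fold in v102 and 0.950-fold in v134, with 1 above and 2 below input. The promoter above was that of Tmprss15, enteropeptidase, the intestinal activator of trypsinogen, with 9 and 26 ChIP reads over 11 and 29 input reads (2.06 ± 0.43, edgeR adjusted p = 2.05e-05). It was also the member with the lowest GC content (32.6%), and its adjusted p with the GC offset was 0.780. Tmprss13 (1 and 1 ChIP reads over 21 and 38 input reads) and Tmprss5 (2 and 0 over 13 and 41) were below input, with log2 fold changes of −2.57 ± 0.88 and −2.41 ± 0.91 (edgeR adjusted p = 0.0153 and 0.0272). With the block the adjusted p was 0.0499 for Tmprss13 and 0.103 for Tmprss5. Tmprss2, which primes viral spike proteins, had 5 and 5 reads over 17 and 30 (0.03, edgeR adjusted p = 0.968). Tmprss6, the matriptase-2 gene of iron regulation, had 1 and 4 over 25 and 43 (−1.49, edgeR adjusted p = 0.0653), and Tmprss9 had 3 and 3 over 30 and 28 (−1.04, edgeR adjusted p = 0.199).

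The Prss family held promoters on both sides, with 10 above and 4 below input out of 37. Prss47 on chromosome 13 had the highest log2 fold change, from 22 and 26 ChIP reads over 25 and 32 input reads (1.99 ± 0.38, edgeR adjusted p = 3.27e-06). Prss54 on chromosome 8 had 35 and 25 over 25 and 67 (1.72 ± 0.34, edgeR adjusted p = 9.94e-06), the most ChIP reads of any member. Prss39 and Prss40, neighbours on chromosome 1, were also above input (1.35 and 1.57), and all 4 of these promoters remained above input with the GC offset. Prss8 was the lowest of all members. The gene of the epithelial sodium channel activator prostasin, it had 2 and 0 ChIP reads over 26 and 53 input reads (−2.97 ± 0.82, edgeR adjusted p = 0.00199), and the count of 0 in v134 allows a ratio of up to 0.0566 there. Its neighbours on chromosome 7, Prss53 and Prss36, were not called, and the pooled ratio of the 3 was 0.319-fold in v102 and 0.182-fold in v134. Prss35 had 1 and 1 ChIP reads over 19 and 48 input reads (−2.73 ± 0.86, edgeR adjusted p = 0.00752). Prss57, a neutrophil granule protease, had 1 and 1 over 16 and 44 (−2.57 ± 0.88), and Prss56, known for its part in eye growth, had 1 and 3 over 28 and 41 (−1.84 ± 0.71). The edgeR adjusted p of Prss57 was 0.0152 and became 0.0549 with the block, and that of Prss56 went from 0.0305 to 0.0668. With the GC offset the edgeR adjusted p was 0.00914 for Prss57 and 0.173 for Prss56.

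Clusters of Prss genes away from the trypsinogens had pooled ratios between 0.245-fold (Prss53 to Prss36) and 1.65-fold (Prss55 to Prss52) over nuclear promoters, beside 2.54-fold for the trypsinogen locus. With GC content matched, Prss33 to Prss27 (1.50-fold) and Prss42 to Prss50 (1.37-fold) were above the trypsinogen locus (1.33-fold). On chromosome 17, 2 of the 7 promoters from Prss33 to Prss27 were above input, Prss32 (1.57, edgeR adjusted p = 0.00184) and Prss41 (1.16, edgeR adjusted p = 0.0372, and 0.0817 with the block), and the windows of these 2 overlap, so they share reads. The lowest there was Prss33 (ratio 0.113). A further group on this chromosome, Prss34, Prss28 and Prss29, had none called by edgeR and 1 at an unadjusted p under 0.05 by edgeR, with ratios between 0.0938 at Prss34 and 0.444 at Prss28. On chromosome 9, none of the 6 promoters from Prss42 to Prss50 was called by edgeR, 0 also at an unadjusted p under 0.05 by edgeR and by DESeq2, and their ratios lay within 0.216 (Prss46) and 0.323 (Prss44). On chromosome 14, Prss51 (1.39, edgeR adjusted p = 0.00809) and Prss52 (1.23, edgeR adjusted p = 0.0225, and 0.05002 with the block) were above input and Prss55 was not (0.36, edgeR adjusted p = 0.571). Of the well-known single genes, 4 did not pass: Prss12 (neurotrypsin, −1.71), Prss16 (a thymic protease, 0.19), Prss21 (testisin, −0.26) and Prss23 (−1.80), with edgeR adjusted p-values of 0.0900, 0.800, 0.716 and 0.0709. Prss23 was below input by edgeR with the GC offset (−2.26, adjusted p = 0.0225) and when scaled by library totals (−1.94, adjusted p = 0.0447). With offset and block its edgeR adjusted p was 0.0744.

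Of the 74 members in the 9 loci, 35 were above and 1 was below input, and of the 26 members outside them 6 were above and 6 below, beside 18.6% above and 17.0% below over all promoters. With the experiment as a block, 26 members in the loci and 6 outside them were above (15.8% of all promoters), and 1 and 3 were below (8.30%). With the GC offset, 14 in the loci and 4 outside were above (7.87% of the promoters tested), and 1 and 6 were below (12.7%). With offset and block, 9 in the loci and 4 outside were above (6.51%), and 1 and 5 were below (6.65%). The pooled ratio was 1.70-fold (v102) and 1.58-fold (v134) over nuclear promoters in the loci and 1.21-fold and 0.987-fold outside them. Against promoters of equal GC content it was 1.43-fold in the loci and 1.05-fold outside them. Members of a locus share a chromosomal neighbourhood and are not replicates of each other, and no test was made of this difference.

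Related genes outside the 7 families were examined beside them. Of 31 listed proteases, inhibitors, receptors and substrates present in the table, 2 were above and 5 below input, beside 18.6% and 17.0% of all promoters, and no test was made against the families. Among 16 other trypsin-fold or granule proteases none passed in the direction of enrichment by edgeR's adjusted p, 1 did at an unadjusted p under 0.05 (Cpa3) and 0 did by DESeq2, and 3 were below input (Ctrl, Cela2a and St14). The mast cell tryptase Tpsab1 had a ratio of 0.282, the tryptase Tpsb2 0.130 and the mast cell carboxypeptidase Cpa3 0.411, and the neutrophil proteases Elane and Prtn3 had 0.0938 and 0.0577. Spink5, an inhibitor of skin kallikreins (1.56, edgeR adjusted p = 0.00343), and Serpinb9, an inhibitor of granzyme B (0.90, edgeR adjusted p = 0.0482), were above input, and the thrombin receptor F2r (−2.13) and the kinin receptor Bdkrb2 (−2.24) were below input (edgeR adjusted p = 0.0229 and 0.0139). Serpinb9 (0.0568), Cela2a (0.0843), St14 (0.0727) and F2r (0.0745) missed the threshold with the experiment as a block. With the GC offset, Spink5 (−0.09, adjusted p = 0.907), Serpinb9 (0.996), F2r (0.123), Bdkrb2 (0.0693) and St14 (0.209) were no longer called by edgeR.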

How the data were processed

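The authors trimmed paired-end 75-base reads with Cutadapt 1.9.1 (Trim Galore 0.4.2), aligned them to GRCm38 with Bowtie2 2.2.7 and used SeqMonk to count reads in a window of 1 kb to either side of annotated start sites. The treatment of duplicate and multiply aligned reads and the annotation release are not given in the sources used here. The deposited values are raw read counts of 4 libraries, and the deposited ratio (ChIP over input, each summed over the experiments), which equalled that quotient at all 26354 promoters, is not scaled for library size. Each promoter had at least 21 summed input reads.

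ChIP and input counts were compared over the whole table by edgeR 4.0.16 (R 4.3.3, quasi-likelihood test, TMM normalization, Benjamini-Hochberg adjustment), with 2 libraries against 2 and the common dispersion at 0.0192, and standard errors were the log2 fold change over the square root of F. These p-values measure the spread between experiments described as independent, with no statement on animals. Each ChIP has its associated input according to the protocol, and the libraries were taken as paired by experiment number. The main fit had no block and left this pairing out, whereas the fits with the experiment as a block used it. Fits with the GC offset were scaled by library totals in place of TMM. The correlation of the ChIP difference with the input difference across promoters was 0.0799. The chi-square per degree of freedom between experiments was 1.52 for ChIP and 1.28 for input, so neither pair is a single library under 2 names. On simulated counts of 26354 promoters the test recovered 82% of promoters raised 4-fold, 6% raised 2-fold, 12% lowered to 0.25 and 0% lowered to 0.5 of their level, and called 1 of 26154 unchanged promoters. Only 50 promoters were changed at each level, far fewer than were called in the data. The adjustment was therefore stricter in the simulation, and its recovery rates do not measure the power of the test in the data.

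Positions came from GENCODE M21 on GRCm38.p6, and GC content from that genome. In GENCODE all 100 members matched (1 by a RefSeq synonym) and 84.7% of all symbols. A locus was 3 or more members with neighbours under 1 Mb apart. Members to be named were the 10 highest and 10 lowest called ones, the extremes of each family and locus and a list of well-known genes. Others named were chosen after their values were seen. The members and lists were chosen with earlier results of these data known. DESeq2 1.42.0 served as an alternative. Further tools were statsmodels 0.14.6 for the GC trend, scipy 1.17.1, pandas 2.3.3, numpy 2.4.6 and matplotlib 3.10.9 under Python 3.11.15.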

Additional observations from a re-analysis of the deposited data

How the results depend on the processing

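Of the 41 members above input, DESeq2 called 24, with the adjusted p undefined at 45 members and 17883 promoters. A minimum of 20 reads in each input left 47 members, 16 of them above and 2 below (beside 2446 and 1678 of the 13993 promoters that pass). Of those 16, 10 were also above input in the whole table, where only 10 of the 41 pass this minimum. The remainder were Klk1, Klk7, Klk13, Prss2, Prss48 and Tmprss4, which were not called in the whole table. Below input, library totals added Prss23, Prss53 and Tmprss6, and the GC offset added Prss23 and Tmprss7. With the GC offset 18 were above, and 13 with the GC offset and the replicate block. The 7 members below input became 4 with the replicate block and 0 with DESeq2, which gave none of the 7 an adjusted p, so that 0 says nothing of them. Within groups, the block also took the Mcpt promoters above from 4 to 2, those above from Prss33 to Prss27 from 2 to 1, and those below from 4 to 2 in Prss, from 2 to 1 in Tmprss and from 6 to 3 outside the loci. The median log2 fold change of the members was 0.43 with the GC offset and 0.42 with the offset and block, when that of all promoters was −0.40 and −0.41. Library totals in place of TMM moved the median of all promoters from −0.35 to −0.50. Under the minimum of 20 reads 19 of 47 members were in the top quartile, and without 1 experiment 47 to 54 of 100. Leaving out the mitochondrial promoters or applying no minimum changed neither count of calls. As a fold over nuclear promoters, the median of the members in place of the pooled ratio gave 1.70 for all members, 2.06 for Klk, 4.66 for Try, 1.58 for Tmprss, 2.67 for Mcpt, 2.21 for Gzm and 0.888 for Cma1. The minimum of 20 reads gave 1.31, 1.54, 1.19, 1.91, 0.911 and 0.842 for all members, Klk, Tmprss, Mcpt, Gzm and Cma1, from 7 Klk, 8 Tmprss, 3 Gzm promoters and 1 Mcpt promoter, and no value for Try, which had no promoter left. Promoters of equal GC content as the denominator gave 1.33 for all members, 1.93 for Klk, 1.61 for Try, 0.902 for Tmprss, 1.73 for Mcpt, 1.23 for Gzm and 0.582 for Cma1. Leaving out 1 experiment gave 1.41 to 1.56 for all members, 1.69 to 1.9 for Klk, 0.997 to 1.34 for Prss, where the value without v102 was 0.997, 3.24 to 3.95 for Try, 1.23 to 1.50 for Tmprss, 2.05 to 2.45 for Mcpt, 1.55 to 1.62 for Gzm and 0.673 to 0.740 for Cma1. Members whose log2 fold change turned sign had not been called: with the minimum of 20 reads Cma1 (0.17) and Prss21 (0.10), with the GC offset and the offset with block Gzma (−0.36 and −0.35), Gzmk (−0.47 and −0.47), Prss16 (−0.28 and −0.29), Prss2 (−0.17 and −0.16), Prss55 (−0.49 and −0.49) and Tmprss11e (−0.58 and −0.56), with the block Prss46 (−0.025), and with library totals Prss46 (−0.093) and Tmprss2 (−0.11). The cause of these changes was not tested. A fit without 1 experiment leaves 1 library in each arm and no residual degrees of freedom, so it gives values with no test. On counts simulated for all promoters, 12% of those lowered to 0.25 and 0% of those lowered to 0.5 of their level were recovered. Only 50 promoters were changed at each level there, so the adjustment was stricter than in the data and these rates do not carry over. A promoter not called here still cannot be taken as equal to input.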
